A study of Mus musculus with 8 samples.

Results

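The Kcn genes are the mouse genes whose symbol begins with Kcn: the pore-forming subunits of most potassium channels, their auxiliary subunits and a few related transcripts. Probes were taken as members where the accession on the array maps to such a symbol in a RefSeq gene table (assembly GRCm38.p6), with 5 further probes that carry KCNQ1ot1 as their array name. Of 98 such symbols in the table, 96 were on the array, with 135 probes. They are 96 of the 37207 genes or unnamed accessions on it. A probe counts as detected on an array where the scanner software marked it well above background. A gene was kept for testing where at least 1 group had a probe of it detected on both its arrays, as was so for 50 of the 96 Kcn genes (52.1%), against 68.8% of all 20145 gene symbols on the array.

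RNA of dendritic cells sorted from mouse thymus had been hybridised to 8 one-colour arrays on 1 slide, in a study titled for CD40 (a receptor by which T cells signal to dendritic cells), thymic dendritic cell maturation and regulatory T cell development. The sort separated cells with and without Sirpa, a surface protein that inhibits phagocytic cells and is found on type 2 conventional dendritic cells, and mature from immature ones. This gave 4 groups of 2 arrays each, named here by the number in the title: Sirpa-positive immature (replicates 3 and 5), Sirpa-positive mature (1 and 6), Sirpa-negative immature (4 and 7) and Sirpa-negative mature (2 and 8). The labels name no strain, genotype, age, treatment or further sort marker, and the same tissue and cell type is given for all groups. Whether a group's arrays stem from different mice or sorts is not given either, so p-values here reflect the spread between 2 samples, possibly a technical one. Each level is the log2 of the background-subtracted signal relative to the array's 75th percentile, which stands at 0. Levels of different probes are not comparable, so each gene is compared with itself across the arrays. In bulk RNA, fewer cells of a type and less RNA per cell cannot be told apart.

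Potassium channels let potassium leave the cell and so hold the membrane potential negative. Voltage-gated channels open on depolarisation, calcium-activated channels when calcium rises inside the cell, inward rectifiers pass current best near the resting potential, and 2-pore channels carry the background leak. In lymphocytes and macrophages a negative potential keeps up the driving force for calcium entry, and loss of potassium from the cell is a known trigger of the NLRP3 inflammasome.

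The signal and the sorted cells were checked first. The share of spots well above background was 61.9% to 65.5% on the 4 arrays of the first slide row (replicates 1, 2, 5 and 7) and between 52.9% and 57.9% on those of the second (3, 4, 6 and 8), and each row held 1 array of every group. All 8 general dendritic cell markers were detected on all arrays. With Sirpa, 3 of them were lower in immature and 2 in mature cells, and none was higher. In Sirpa-positive maturation 1 rose. Of 8 markers of mature dendritic cells 7 were higher in mature cells of both subsets (Ccr7 71.7-fold and 51.5-fold). In immature cells, all 5 tested markers of type 1 conventional dendritic cells were lower and 5 of 6 of type 2 were higher with Sirpa, among them Sirpa itself (114-fold). Genes of other cells moved with both divisions. Of 11 macrophage markers (C1qa, C1qb, C1qc, Mertk, Adgre1 and others) 10 were higher with Sirpa in immature cells and 7 in mature cells. Their summed linear level (the 75th percentile as 1) was 472.5 to 614.1 on Sirpa-positive immature and 379.6 to 395 on Sirpa-positive mature arrays, against 14.4 to 15.6 and 16.1 to 18.4 on Sirpa-negative ones, and none was undetected throughout. Of 20 thymocyte and T cell markers, all of them detected on some array, 5 were higher in mature Sirpa-positive and 15 in mature Sirpa-negative cells than in the immature cells, with none lower. Their summed level was 18.5 to 19.6 and 14.98 to 15.3 on the immature Sirpa-positive and Sirpa-negative arrays, against 46.1 to 50.5 and 54.8 to 63.6 on the mature ones. Of 4 tested endothelial and fibroblast markers 2 were higher with Sirpa in immature cells, with a summed level of 1.77 to 2.38 on Sirpa-negative immature arrays against 8.17 to 15.6 on the others, and Cdh5 and Pdgfra detected nowhere. Of 6 tested thymic epithelial markers 2 were higher with Sirpa in immature cells and 2 in Sirpa-negative maturation, with sums of 3.01 to 4.02 on Sirpa-negative immature arrays against 5.87 to 13.9 on the others. Of 8 plasmacytoid dendritic cell markers 3 were lower and 1 higher in Sirpa-negative maturation. The B cell, innate lymphocyte and neuron and glia lists had at most 1 gene called in each direction of a comparison, and the erythroid list none. What part any of these cells has in the Kcn values below was not tested.

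Of the 96 Kcn genes, 27 were detected on all 8 arrays, 30 on none, 16 on some arrays without reaching both of any group, and the other 23 in 1 to 3 groups. By group, 46 were detected on both Sirpa-positive immature arrays, 43 on both Sirpa-positive mature arrays, 39 on both Sirpa-negative mature arrays and 31 on both Sirpa-negative immature arrays. The share of all spots above background was 65.1% and 57.9%, 65.5% and 53.2%, 63.8% and 55.6%, and 61.9% and 52.9% on these arrays, in the same order. Shares of all genes by group were not counted, so nothing particular to the Kcn genes is drawn from the group counts. Voltage-gated pore subunits were the most numerous, with 22 of 40 kept and 12 detected on every array, among them Kcna3, Kcna4, Kcna7, Kcnc4, Kcnd1, Kcnd2, Kcnd3, Kcng2, Kcnh2, Kcnh3 and Kcnh4. Of 14 genes of 2-pore channels, 10 were kept, and Kcnk3, Kcnk4, Kcnk6, Kcnk7, Kcnk9, Kcnk15 and Kcnk16 were detected on every array. Auxiliary subunits had 6 of 16 kept, with Kcnab1, Kcnab2, Kcne1l, Kcnip2 and Kcnip3 detected throughout. Inward rectifiers had 6 of 15 kept (Kcnj2, Kcnj4, Kcnj9, Kcnj10, Kcnj11 and Kcnj12), none of them on all arrays. Calcium- or sodium-activated pores had 4 of 8 kept (Kcnn4 and Kcnt1 on every array, Kcnn3 and Kcnma1 on some). The non-coding Kcnq1ot1, known to keep part of an imprinted domain silent, was detected throughout, and Kcnrg, a regulator of channel assembly, on both arrays of 3 groups. No gene of the Kcns or Kcnv subunits was detected on any array.

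**Figure D1:**
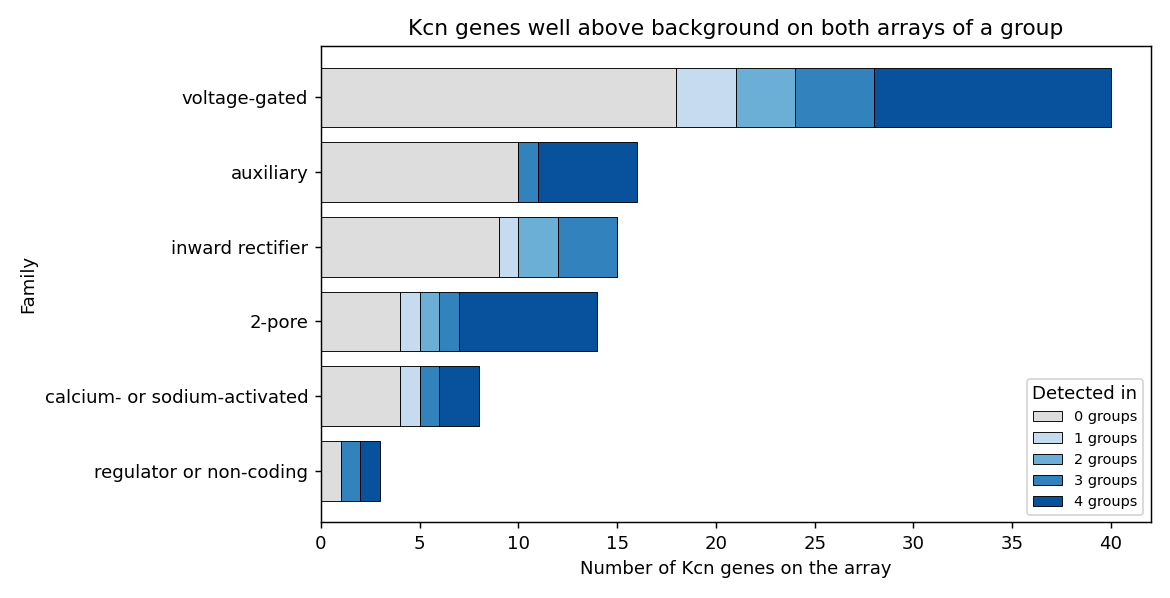
Number of Kcn genes on the array by family (horizontal axis), split by the number of groups, 0 to 4, in which a probe of the gene was well above background on both arrays. The voltage-gated family holds 40 genes, 12 of them detected in all 4 groups, and no inward rectifier was detected in all 4.

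Maturation and subset were each compared by limma over 24151 genes, with an adjusted p under 0.05 as the threshold. Of these entries 13869 have a gene symbol, as every Kcn gene does, and the others are unnamed accessions. Shares of all genes are over all 24151, and shares over named genes alone were not counted. In Sirpa-positive cells, 5 of the 50 kept Kcn genes (10%) differed between mature and immature arrays, against 6.89% of all genes. Of these, 4 were higher when mature (4.35% of all genes were) and 1 was lower (2.53%). In Sirpa-negative cells the count was 14 (28%), against 16.5% of all genes, with 8 higher when mature (9.23% of all) and 6 lower (7.24%). The 8 include Kcng3, which was not well above background on any Sirpa-negative array. Between the subsets, 5 (10%) differed in immature cells, against 11.6% of all genes, with 4 higher with Sirpa (7.23% of all) and 1 lower (4.39%). In mature cells 3 (6%) differed, all of them higher with Sirpa, against 5.48% of all genes (3.37% higher and 2.10% lower). The counts of the 2 subset comparisons lay near those shares. The median log2 difference of the Kcn genes was 0.13 in both maturation comparisons, beside 0.03 (Sirpa-positive) and -0.01 (Sirpa-negative) for all genes, and 0.10 and -0.0043 between the subsets of immature and mature cells, beside -0.11 and -0.07. The comparisons share arrays, and 16 Kcn genes made up the 27 calls. With normexp background correction and quantile normalization, 2 genes rose and 2 fell in Sirpa-positive maturation and 4 rose and 5 fell in Sirpa-negative maturation. On the authors' values these splits were 2 and 1, and 4 and 5.

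**Figure D2:**
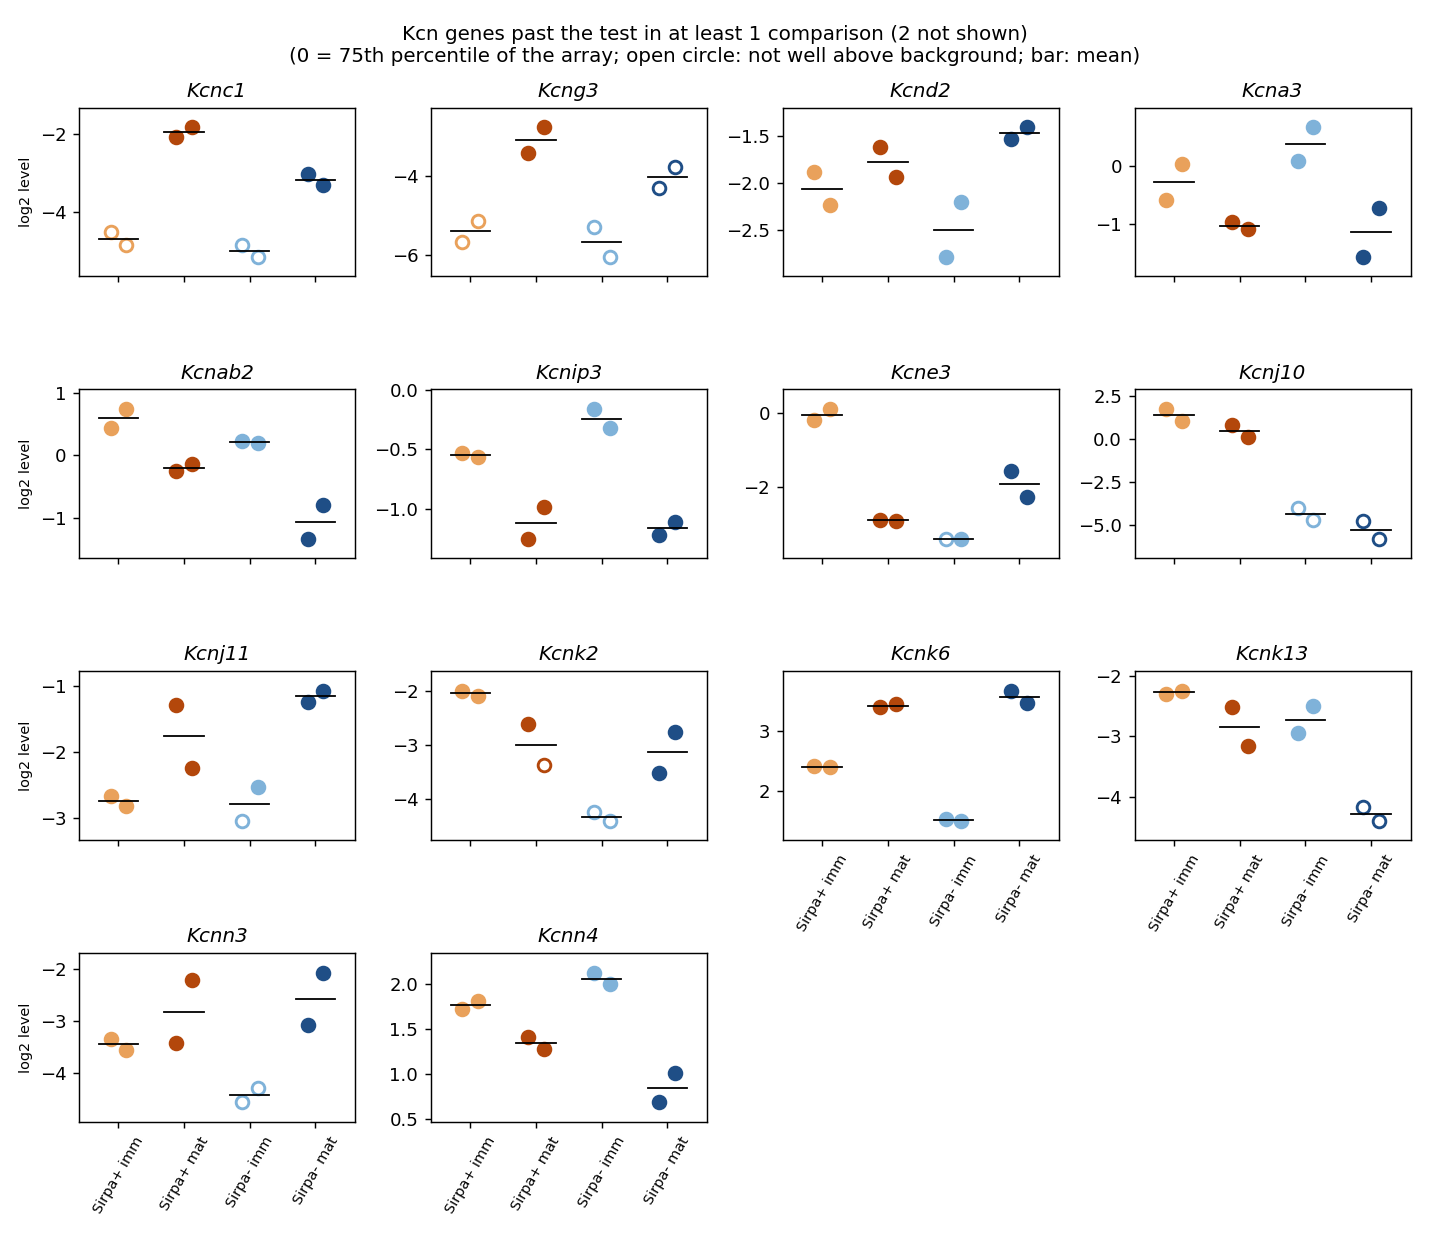
Level of 14 of the 16 Kcn genes that passed the test in at least 1 comparison, on the log2 scale with the array's 75th percentile at 0, for the 4 groups; each point is 1 array, open where not well above background, and the bar is the mean of the 2 arrays. The Kcnj10 points of the Sirpa-positive arrays (0.12 to 1.76) lie above all Sirpa-negative ones (-5.80 to -4.04), and Kcne3 is highest on the Sirpa-positive immature arrays.

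Among the voltage-gated pores, Kcnc1 was higher in the mature cells of both subsets and Kcng3 in those of the Sirpa-positive subset. Kcnc1 is a fast-opening delayed rectifier. The probe that stood for it was undetected on all 4 immature arrays and was kept through the mature groups alone. It read -4.51 and -4.84 on Sirpa-positive immature and -2.10 and -1.83 on Sirpa-positive mature arrays, against -4.84 and -5.14 on Sirpa-negative immature and -3.04 and -3.31 on Sirpa-negative mature arrays. Mature arrays lay above immature ones throughout, and Sirpa-positive mature arrays above Sirpa-negative mature ones. The lower bound on a fold sets the brighter mean against the higher of the dim probe's signal and the faintest signal well above background on each array. Such a bound holds for this scaling alone, as some differences were smaller under the alternatives. The rise with maturation was at least 5.23-fold in Sirpa-positive cells (log2 difference 2.71, SE 0.237, adjusted p = 0.00197; 2.75 and 2.67 within the slide rows) and at least 1.63-fold in Sirpa-negative cells (1.82, adjusted p = 0.00345; 2.10 and 1.53). The first call held under all alternatives that kept the gene, with log2 differences down to 0.77. The second did not hold with normexp and quantile normalization (adjusted p = 0.254) or on the authors' values (0.134). Mature Sirpa-positive cells had 2.31-fold more than mature Sirpa-negative cells (1.21, adjusted p = 0.0295; 0.94 and 1.48). That call was lost without replicate 1, 2, 3, 5, 6 or 8 (log2 differences 1.07 to 1.35). It was also lost with the slide row as a block (0.0550), trended and robust variances (0.188) and no filter (0.122). The same held in the fit of its 4 arrays alone (0.0835) and on the mean of its probes (0.0635). Nor did it pass with normexp and quantile normalization (0.0824) or on the authors' values (0.0505). A second probe of Kcnc1, detected on both Sirpa-positive immature arrays, rose by 0.51 in Sirpa-positive maturation (adjusted p = 0.505), so the probes disagree.

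Kcng3 encodes a subunit that forms no channel alone and modifies other voltage-gated pores. It read -5.68 and -5.13 on Sirpa-positive immature arrays and -3.43 and -2.78 on Sirpa-positive mature arrays, where alone it was above background. The filter thus kept Kcng3 through the group in which it was called higher, and the call is tied to that filter. Its Sirpa-negative levels were -5.28 and -6.04 when immature and -4.32 and -3.77 when mature, all of them not well above background. The rise was at least 2.38-fold in Sirpa-positive cells (log2 difference 2.30, SE 0.378, adjusted p = 0.0156; 1.70 and 2.90 within the slide rows). It was lost without replicate 6 (0.0966), 3 (0.105) or 5 (0.0583), with normexp and quantile normalization (log2 difference 0.37, adjusted p = 0.164), on the authors' values (0.60, 0.0702) and with no filter (0.0714). In Sirpa-negative cells the test also passed (1.62, adjusted p = 0.0284; 1.72 and 1.51), but with both groups below background no fold is given and no rise is drawn from it. The difference was 0.14 with normexp and quantile normalization (adjusted p = 0.584) and 0.26 on the authors' values (0.391). It also did not pass with trended and robust variances (0.107), with no filter (0.0942), in the fit of its 4 arrays alone (0.0589) or without replicate 2, 7 or 8 (0.0645 to 0.126).

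Promoter sequence is shown for Kcnc1 and Kcng3, which rose in Sirpa-positive maturation, and for Kcnn4, which fell (below), because these 3 of the 16 called genes carry a match to the NF-kB consensus (named for the family of factors active in dendritic cell maturation) in the 250 bases before a RefSeq start. The windows are chr7:46396218-46396467 on the plus strand (Kcnc1), chr17:83631896-83632145 on the minus strand (Kcng3) and chr7:24370013-24370262 on the plus strand (Kcnn4), in GRCm38.p6 coordinates, written 5′ to 3′ with the matches in capitals.
Kcnc1: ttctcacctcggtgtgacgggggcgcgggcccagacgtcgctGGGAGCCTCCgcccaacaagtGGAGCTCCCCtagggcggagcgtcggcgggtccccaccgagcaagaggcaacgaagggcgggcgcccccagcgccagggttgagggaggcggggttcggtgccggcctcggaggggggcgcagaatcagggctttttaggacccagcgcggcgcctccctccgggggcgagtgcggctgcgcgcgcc
Kcng3: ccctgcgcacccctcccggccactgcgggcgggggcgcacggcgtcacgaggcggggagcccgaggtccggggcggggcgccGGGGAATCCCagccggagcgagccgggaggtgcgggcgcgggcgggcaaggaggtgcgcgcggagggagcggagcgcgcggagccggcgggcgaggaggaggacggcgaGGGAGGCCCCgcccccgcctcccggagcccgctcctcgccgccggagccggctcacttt
Kcnn4: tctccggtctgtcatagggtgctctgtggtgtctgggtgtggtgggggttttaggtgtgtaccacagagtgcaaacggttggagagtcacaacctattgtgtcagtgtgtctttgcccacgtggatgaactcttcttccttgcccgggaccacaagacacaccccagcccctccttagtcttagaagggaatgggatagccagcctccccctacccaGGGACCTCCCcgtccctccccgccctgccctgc
The matches began 208 and 187 bases before the start of Kcnc1, 168 and 59 before that of Kcng3 and 33 before that of Kcnn4. Both strands were searched, and 20 windows of 12 of the 16 genes were in the sequence table. The consensus was in 3 of these 20 windows and in 7.25% of all 32851 promoter windows of that length. The windows of Kcnc1 and Kcng3 are 74.4% and 82.4% G and C. Of the other motifs searched, an ISRE-like motif (interferon response) was in 0 of the 20 windows (2.98% of all), GAGGAAGT in 0 (2.44% of all) and TGANTCA in 3 (6.75% of all). A match describes the letters of the window, and nothing about a factor is drawn from it.

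Kcnd2, the pore of a fast-inactivating A-type channel, rose in Sirpa-negative maturation from -2.78 and -2.20 to -1.53 and -1.40 (2.04-fold, log2 difference 1.03, SE 0.268, adjusted p = 0.0409; 0.67 and 1.38 within the slide rows). It read -1.88 and -2.24 on Sirpa-positive immature and -1.62 and -1.93 on Sirpa-positive mature arrays, which overlap. It was detected on every array. Its call was lost under 14 alternatives, among them median scaling (0.0831), quantile normalization (0.0603), normexp with quantile normalization (0.0991), the authors' values (0.0865), the slide row as a block (0.0705) and the omission of any array but replicate 7 (0.0535 to 0.191).

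Kcna3, the pore that sets the membrane potential of resting T cells, was detected on every array and fell in Sirpa-negative maturation from 0.08 and 0.66 to -1.55 and -0.72. The fall was 2.83-fold (log2 difference -1.50, SE 0.360, adjusted p = 0.0309), but unequal in the slide rows (-2.21 and -0.79). The call did not hold without replicate 2 (0.148), 7 (0.137), 4 (0.0535), 1 or 6 (0.05002 each), nor with the slide row as a block (0.0522) or with no filter (0.101). In Sirpa-positive cells Kcna3 went from -0.59 and 0.02 to -0.97 and -1.08 (log2 difference -0.74, adjusted p = 0.313), groups that do not overlap but did not pass. In the same Sirpa-negative comparison 15 thymocyte and T cell markers were higher when mature. What part T cells have in the Kcna3 level was not tested.

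Of the 16 kept voltage-gated genes that passed in no comparison, Kcna4 had levels of 7.29 to 8.47 on all arrays (the probe's specificity was not checked, as no probe sequence was used here) and Kcna7 of 2.60 to 3.50. Kcnh4, of the ether-a-go-go family, was the steadiest of these, between -1.52 and -1.17. Kcna6 and Kcna2 had large but scattered differences in Sirpa-negative maturation: 1.72 (SE 0.850, adjusted p = 0.230) for Kcna6, with 3.25 within row 1 and 0.19 within row 2, and 1.18 (SE 0.370, adjusted p = 0.0727) for Kcna2. Across the 22 kept genes of this family, 3 were called higher and 0 lower in Sirpa-positive maturation (4.35% and 2.53% of all genes). In Sirpa-negative maturation 4 were called higher and 2 lower (9.23% and 7.24% of all genes). The 2 lie near the share of all genes. The 4 include Kcng3, which was not well above background on any Sirpa-negative array. The median log2 differences were 0.11 and 0.19.

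**Figure D3:**
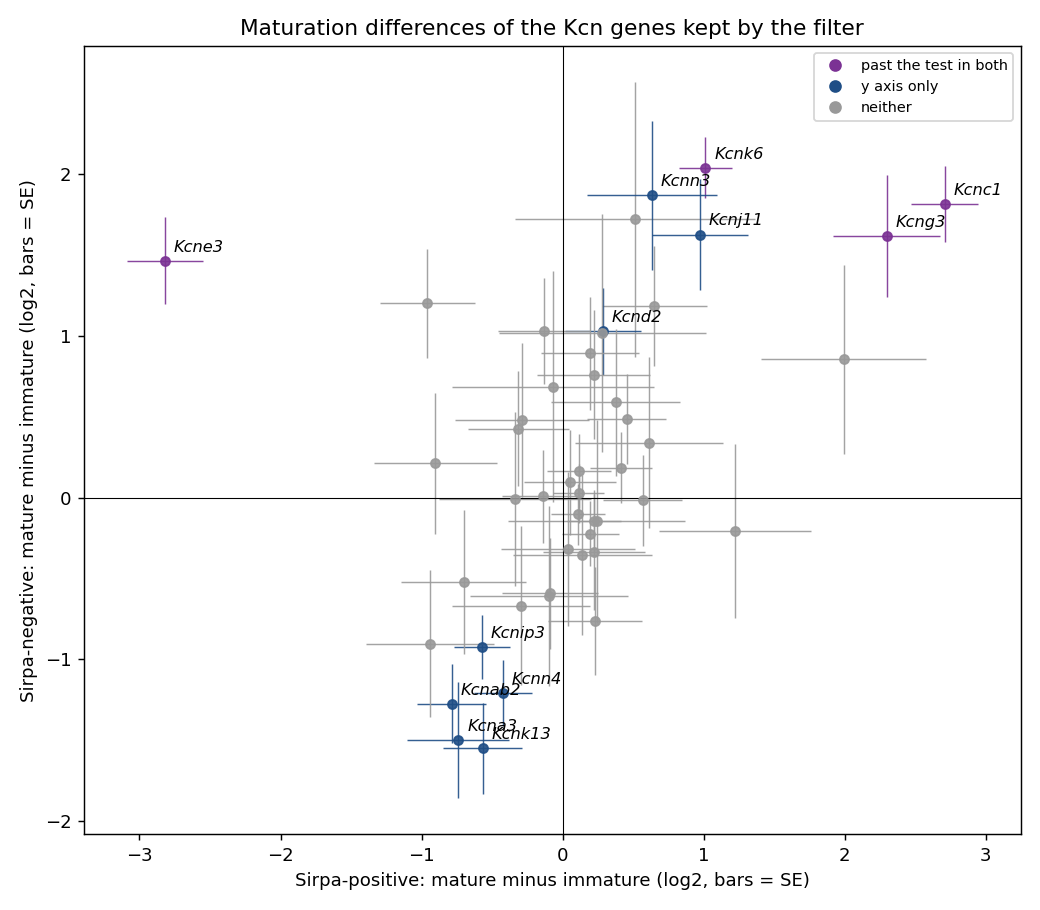
Mature minus immature difference of 48 of the 50 kept Kcn genes in Sirpa-positive cells (horizontal axis) and Sirpa-negative cells (vertical axis), both log2, with bars of 1 standard error; colours give where the gene passed limma's test. Kcnc1 and Kcnk6 are higher in both, and Kcne3 lies at -2.82 and 1.46. Kcng3 passed in both but was not above background on any Sirpa-negative array.

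Among the auxiliary subunits, Kcne3 had the largest differences. It is a single-pass membrane protein that alters the gating of Kcnq1 and other pores, and Kcnq1 itself was detected on no array. Kcne3 read -0.21 and 0.10 on Sirpa-positive immature arrays, -2.86 and -2.89 on Sirpa-positive mature arrays, -3.38 and -3.37 on Sirpa-negative immature arrays and -1.56 and -2.26 on Sirpa-negative mature arrays. The Sirpa-positive immature arrays were highest, then the Sirpa-negative mature ones. With maturation it fell 7.07-fold in Sirpa-positive cells (log2 difference -2.82, SE 0.269, adjusted p = 0.00246; -2.96 and -2.68 within the slide rows) and rose 2.76-fold in Sirpa-negative cells (1.46, adjusted p = 0.0123; 1.81 and 1.11), where 1 of the 2 immature arrays was above background. In immature cells it was 9.97-fold higher with Sirpa (3.32, adjusted p = 0.000359; 3.47 and 3.17). A second probe of the gene passed in the same 3 comparisons, with log2 differences of -3.41, 1.89 and 3.86. The fall in Sirpa-positive cells and the subset difference held under all alternatives that kept the gene. The rise in Sirpa-negative cells did not hold with no filter (0.0530) or in the fit of its 4 arrays alone (0.0516). It was also lost without replicate 2, 4 or 7 (log2 differences 1.11 to 1.47). In mature cells Kcne3 was lower with Sirpa by less than the test could call (-0.97, adjusted p = 0.101). Macrophage marker sums were 472.5 to 614.1 on the Sirpa-positive immature arrays, where Kcne3 read -0.21 and 0.10. They were 379.6 to 395 on the Sirpa-positive mature arrays, where Kcne3 read -2.86 and -2.89. The part of macrophages in the Kcne3 values was not tested.

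For Kcne3, 2 start windows are in the table. The first, chr7:100176420-100176669 on the plus strand in GRCm38.p6, is shown because it holds a match to TGANTCA, an AP-1-like motif, 37 bases before the start (capitals), and the second, chr7:100178433-100178682, holds none of the motifs searched.
Kcne3: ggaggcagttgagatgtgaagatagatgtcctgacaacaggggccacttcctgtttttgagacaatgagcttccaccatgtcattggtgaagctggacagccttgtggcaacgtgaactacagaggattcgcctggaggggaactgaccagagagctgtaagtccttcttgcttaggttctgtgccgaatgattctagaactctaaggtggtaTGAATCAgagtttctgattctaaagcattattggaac
The same motif was found once each for Kcnip3 (122 bases before a start) and Kcnk2 (126 bases before a start).

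The cytoplasmic subunits Kcnab2 and Kcnip3 fell in Sirpa-negative maturation. Kcnab2, a beta subunit of Kcna-type channels related to aldo-keto reductases, went from 0.23 and 0.20 to -1.33 and -0.79 (2.42-fold, log2 difference -1.28, SE 0.244, adjusted p = 0.0140; -1.53 and -1.02 within the slide rows). In Sirpa-positive cells it went from 0.44 and 0.75 to -0.25 and -0.14 (-0.79, adjusted p = 0.115), again without overlap. Kcnip3, a calcium-binding protein that assists Kcnd-type channels and also represses transcription, went from -0.16 and -0.32 to -1.22 and -1.11 (1.90-fold, -0.93, SE 0.199, adjusted p = 0.0211; -0.90 and -0.95). In Sirpa-positive cells it went from -0.53 and -0.56 to -1.25 and -0.99 (-0.57, adjusted p = 0.155). The Kcnab2 call was lost without replicate 2, 4 or 7 (0.0566 to 0.0677) and the Kcnip3 call without replicate 2, 8, 4 or 7 (0.0536 to 0.109), and both with no filter (0.0592 and 0.0841) and in the fit of the 4 arrays alone (0.0550 and 0.0707). A second, dimmer Kcnip3 probe fell by 0.65 and did not pass (adjusted p = 0.271). Kcnab1, Kcne1l and Kcnip2, the remaining kept auxiliary genes, passed in no comparison.

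Of the inward rectifiers, Kcnj10 had the widest range of all kept Kcn genes. It encodes a pore best known for potassium buffering by glia. Kcnj10 read 1.76 and 1.06 on Sirpa-positive immature arrays and 0.82 and 0.12 on Sirpa-positive mature arrays, against -4.04 and -4.71 on Sirpa-negative immature and -4.75 and -5.80 on Sirpa-negative mature arrays. All 4 Sirpa-positive arrays had it well above background and none of the Sirpa-negative arrays did, so the filter kept it through the Sirpa-positive groups alone. With Sirpa it was at least 39.1-fold higher in immature cells (log2 difference 5.78, SE 0.455, adjusted p = 0.000313; 5.77 and 5.79 within the slide rows) and at least 20.1-fold higher in mature cells (5.75, adjusted p = 0.000635; 5.57 and 5.92). These calls held under all alternatives that kept the gene, with log2 differences in immature cells down to 3.19. The macrophage markers were higher on the same 4 arrays. Of 6 tested markers of neurons and glia Mbp alone differed between the subsets of immature cells, being 2.60-fold lower with Sirpa. The 250 bases before the start of Kcnj10, chr1:172340960-172341209 on the plus strand, are shown as those of the gene with the largest difference, and they hold none of the 4 motifs searched.
Kcnj10: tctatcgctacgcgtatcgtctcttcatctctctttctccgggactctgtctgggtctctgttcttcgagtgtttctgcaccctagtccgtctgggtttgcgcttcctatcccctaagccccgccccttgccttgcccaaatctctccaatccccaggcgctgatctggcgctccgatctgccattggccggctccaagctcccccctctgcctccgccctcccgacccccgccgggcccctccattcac

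Kcnj11, the pore of the ATP-sensitive channel, rose in Sirpa-negative maturation from -3.04 and -2.53 to -1.24 and -1.08 (3.09-fold, log2 difference 1.63, SE 0.342, adjusted p = 0.0195; 1.29 and 1.96 within the slide rows), with 1 of the 2 immature arrays above background. It was -2.66 and -2.82 on Sirpa-positive immature and -1.29 and -2.25 on Sirpa-positive mature arrays. The call did not hold without replicate 2 (0.0763), 8 (0.0752) or 4 (0.0988) or with no filter (0.0717). Kcnj2, a strong inward rectifier reported in macrophages, read -3.18 and -4.09 on Sirpa-positive immature and -4.17 and -3.79 on Sirpa-positive mature arrays. On Sirpa-negative arrays it was not above background, at -4.81 and -6.47 when immature and -5.74 and -5.56 when mature. The filter kept Kcnj2 through the Sirpa-positive immature group alone, where both arrays had it above background. Its subset difference in immature cells, 2.00 (SE 0.539), missed the threshold (adjusted p = 0.0574). The difference passed under 4 of 20 alternatives, among them quantile normalization (0.0333), median scaling (0.0355) and the slide row as a block (0.0214). Over the 20, it spanned 0.21 to 2.83 (the latter without replicate 4). Those that did not pass include normexp with quantile normalization and the authors' values. Kcnj8, the other pore of ATP-sensitive channels, was detected on replicate 1 alone and was not tested. Kcnj4, Kcnj9 and Kcnj12 passed in no comparison.

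Of the 2-pore genes, 3 differed. Kcnk6, a leak channel through which macrophages lose potassium before NLRP3 activation, was detected on all arrays and read 2.42 and 2.39 on Sirpa-positive immature, 3.40 and 3.44 on Sirpa-positive mature, 1.53 and 1.51 on Sirpa-negative immature and 3.66 and 3.46 on Sirpa-negative mature arrays. Mature arrays lay above immature ones in both subsets. It was 4.11-fold higher in mature than in immature Sirpa-negative cells (log2 difference 2.04, SE 0.187, adjusted p = 0.000999; 2.15 and 1.93 within the slide rows), a call that held under all alternatives. The rise in Sirpa-positive cells was 2.02-fold (1.01, adjusted p = 0.0230; 1.003 and 1.02) and the excess in immature Sirpa-positive over Sirpa-negative cells 1.85-fold (0.88, adjusted p = 0.0234; 0.88 and 0.89). These smaller differences did not pass without any one of the arrays compared (adjusted p 0.0720 to 0.143 without replicate 1, 3, 5 or 6 and 0.101 to 0.156 without replicate 3, 4, 5 or 7) or when slide row was a block (0.0596 and 0.0593).

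Kcnk13, a channel known from microglia, was undetected on the Sirpa-negative mature arrays (-4.17 and -4.39) and detected on all others. It read -2.95 and -2.50 on Sirpa-negative immature, -2.30 and -2.25 on Sirpa-positive immature and -2.52 and -3.16 on Sirpa-positive mature arrays. It was at least 2.19-fold lower in mature than in immature Sirpa-negative cells (log2 difference -1.55, SE 0.279, adjusted p = 0.0114; -1.66 and -1.44 within the slide rows), and mature Sirpa-positive cells had at least 2.03-fold more (1.44, adjusted p = 0.0288; 1.65 and 1.23). The first call was lost with normexp and quantile normalization (0.0701), on the authors' values (0.0650) and without replicate 8 (0.0506) or 7 (0.0579). The second was lost under the same normalizations (0.200 and 0.161) and with no filter (0.1145). It was also lost in the fit of its 4 arrays alone (0.0791) and with trended and robust variances (0.0604). Without replicate 1, 3, 5, 2 or 8 it did not hold either (log2 differences 1.12 to 1.55).

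Kcnk2, a leak channel opened by stretch and lipids, was at least 3.54-fold higher with Sirpa in immature cells, at -1.99 and -2.08 against -4.26 and -4.41, the latter not above background (log2 difference 2.30, SE 0.339, adjusted p = 0.00493; 2.33 and 2.27 within the slide rows). This held under all alternatives that kept the gene, with log2 differences down to 0.63. The mature arrays lay between and overlapped, at -2.61 and -3.38 with Sirpa and -3.52 and -2.76 without. Of the 7 kept 2-pore genes with no call, Kcnk15 was the steadiest, between 1.69 and 1.87 on the 8 arrays. Kcnk5 was above background on both Sirpa-positive mature arrays alone (-4.28 and -3.23) and did not pass (log2 difference 1.99 with maturation, SE 0.586, adjusted p = 0.101; 1.05 and 2.93).

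**Figure D4:**
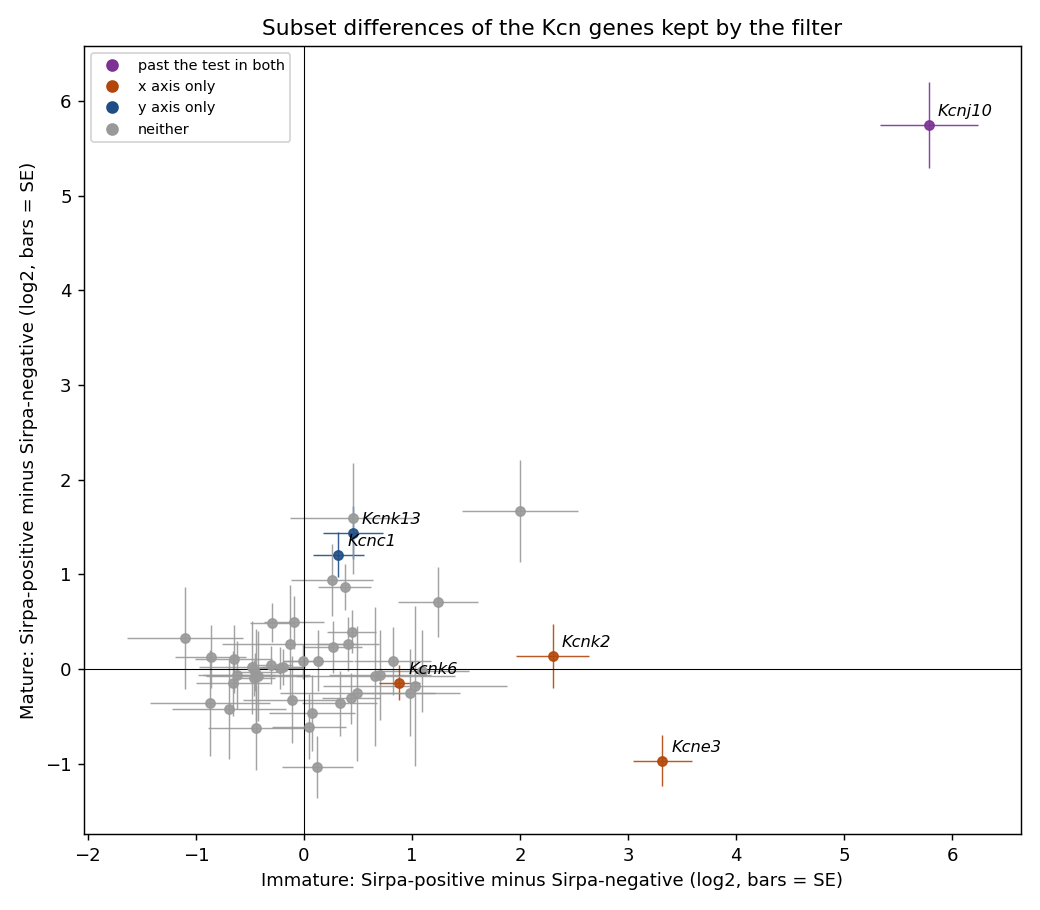
Sirpa-positive minus Sirpa-negative difference of 48 of the 50 kept Kcn genes in immature cells (horizontal axis) and mature cells (vertical axis), both log2, with bars of 1 standard error; colours give where the gene passed limma's test. Kcnj10 lies at 5.78 and 5.75, and Kcne3, Kcnk2 and Kcnk6 passed in immature cells alone.

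The calcium-activated pores Kcnn4 and Kcnn3 moved in opposite directions in Sirpa-negative maturation. Kcnn4, the intermediate-conductance channel of lymphocytes and macrophages, was detected on all arrays and went from 2.13 and 2.00 to 0.69 and 1.02 (2.31-fold lower, log2 difference -1.21, SE 0.206, adjusted p = 0.00939; -1.31 and -1.11 within the slide rows). In Sirpa-positive cells it went from 1.72 and 1.81 to 1.41 and 1.28 (-0.42, adjusted p = 0.312). The call was lost without replicate 2 (0.0522) or 4 (0.0545). Kcnn3, of the small-conductance family, went from -4.58 and -4.30, not above background, to -3.08 and -2.06 (at least 2.35-fold higher, 1.87, SE 0.459, adjusted p = 0.0335; 1.22 and 2.52). A second Kcnn3 probe differed by -0.03 (adjusted p = 0.979), and the call did not hold without replicate 3, 5, 8, 4 or 7 (0.0601 to 0.133), on the mean of both probes (0.260), with normexp and quantile normalization (0.258), with quantile normalization alone (0.0629) or on the authors' values (0.193). On Sirpa-positive arrays Kcnn3 was at -3.34 and -3.56 when immature and -3.42 and -2.22 when mature. Kcnma1, the large-conductance pore, scattered within groups, at -2.79 and -4.09, -2.66 and -3.66, -5.01 and -3.20, and -2.49 and -3.68 on the Sirpa-positive immature and mature and the Sirpa-negative immature and mature arrays, and passed in no comparison (adjusted p of 0.413 or above). The 7 probes of Kcnq1ot1 passed nowhere, and the one that stood for it lay between 2.14 and 3.33 (log2 difference -0.66 between the subsets of immature cells, adjusted p = 0.291). Its strand is unknown for 5 of these probes.

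No Kcn gene passed the test of whether maturation differed between the subsets, nor did any of the 24151 genes (0%). At an unadjusted p under 0.05 limma gave 8 Kcn genes (among them Kcnc1, Kcne3, Kcnk13, Kcnk2, Kcnk6, Kcnn4 and Kcnrg) and 1948 of all genes (8.07%). For Kcne3 the difference of the log2 maturation effects was -4.29 (SE 0.381, adjusted p = 0.0689; -4.78 and -3.79 within the slide rows). It passed with normexp and quantile normalization (-2.29, 0.00689), on the authors' values (-2.86, 0.00853), on the mean of its probes (-4.79, 0.0483) and with trended and robust variances (-4.29, 0.00270).

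The genes that work with these channels were taken from 4 lists. The counts below stand beside 4.35% of all genes higher and 2.53% lower in Sirpa-positive maturation, 9.23% and 7.24% in Sirpa-negative maturation, 7.23% and 4.39% with Sirpa in immature cells, and 3.37% and 2.10% in mature cells. Among 16 tested potassium pumps, transporters and channel partners, 3 rose and 1 fell in Sirpa-positive maturation and 4 rose and 1 fell in Sirpa-negative maturation (median log2 differences 0.12 and 0.42). Atp1b1, the beta subunit of the sodium-potassium pump that imports potassium, rose 4.32-fold (adjusted p = 0.00761) and 3.05-fold (0.0105). Dpp10, a membrane partner of Kcnd-type pores, rose 4.55-fold (0.00937) in Sirpa-positive maturation and was 6.51-fold higher with Sirpa in mature cells (0.00298). Atp2b4, a calcium-exporting pump, rose 2.86-fold (0.00538) and 3.76-fold (0.00113). Between the subsets 4 were higher with Sirpa in immature and 2 in mature cells, and none was lower.

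Among 26 tested genes of calcium entry and release, 3 rose and 3 fell in Sirpa-positive maturation, and 3 rose, near the share of all genes (9.23%), and 5 fell in Sirpa-negative maturation. Cacnb3, a beta subunit of voltage-gated calcium channels, rose 22.7-fold (adjusted p = 0.00320) and 25.6-fold (0.00128). Itpr1, a release channel of the endoplasmic reticulum, fell by 1.16 (0.0147) and by 1.53 (0.00279) on the log2 scale. P2rx7, the ATP-gated channel through which potassium leaves the cell, fell 6.82-fold in Sirpa-negative maturation (0.00374). With Sirpa, 4 were higher and 1 lower in immature cells, and 3 higher and 1 lower in mature cells. Cacna1s, a calcium channel pore, was the lower one in both (8.75-fold, 0.000112, and 2.30-fold, 0.0141).

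Among 21 tested further channels that bear on the membrane potential or cell volume, 2 rose in Sirpa-positive maturation and 6 rose and 2 fell in Sirpa-negative maturation. Hcn3, a pacemaker-type cation channel undetected in immature cells, rose at least 7.005-fold (adjusted p = 0.00246) and at least 8.26-fold (0.000639), and Clic4 3.37-fold (0.00631) and 2.93-fold (0.00469). The filter kept Hcn3 through mature cells alone, in which it was called higher. With Sirpa 6 were higher and 1 lower in immature cells, led by Clcn7, a lysosomal chloride exchanger (3.54-fold, 0.00107), and 1 higher in mature cells. Of 12 genes of the NLRP3 inflammasome, which senses potassium loss, Nlrp3 fell in both maturation comparisons (2.68-fold, 0.0221, and 4.61-fold, 0.00235), and Casp4 and Casp1 rose in Sirpa-negative maturation (4.72-fold, 0.00444, and 1.90-fold, 0.0446). With Sirpa 4 of the 12 were higher in immature and 4 in mature cells, among them Il1b (8.11-fold, 0.000923, and 6.20-fold, 0.00322) and Panx1, a large-pore channel (5.61-fold, 0.000326, and 2.43-fold, 0.0113). Kcnk6 thus rose in both maturation comparisons in which Nlrp3 fell. These arrays are also those on which the macrophage and thymocyte markers differ, and the part of those cells in the list counts was not tested.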

How the data were processed

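The scanner files hold spot intensities, deposited by the authors as the output of Feature Extraction 10.7.3.1 per the file headers (the submitters' processing notes give 10.5, and the difference was not resolved), whose processed signal is background-subtracted and spatially detrended. The log2 values of the authors' deposited table, which the submitters' processing notes credit to limma, are quantile normalized and served as an alternative.

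Outlier spots (110 to 270 per array) were set missing, spots of a probe were averaged, and the log2 processed signal had its array's 75th percentile subtracted. The 75th percentile signal was 147 to 313, and no spot was saturated. Of 55681 probes, 33697 were kept (well above background on each array of some group), and the probe with the highest mean stood for a gene. This left 24151 genes or accessions, 48 of which lacked a value on some array; no Kcn probe did. Accessions were named through the RefSeq table, where 26587 probes received a symbol. The design header names mm9, so no probe coordinates are printed.

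One model of 4 group means over all 8 arrays was fitted with limma 3.58.1 (R 4.3.3; 4 residual and 3.26 prior degrees of freedom), with two-sided tests and Benjamini-Hochberg adjustment over the 24151 genes. It was tested on simulated data. Precision is limited by the number of arrays. The members, gene lists and tests were chosen with earlier results of these data known. Genes were named with full values where they passed in any comparison, with 10 fixed Kcn genes added; from the other lists up to 2 risen and 2 fallen genes per comparison with the smallest p were eligible. Some genes that enter the counts are not reported here by name or drawn. Alternatives covered background correction, scaling, the authors' values, filters on dim probes, probe choice, outlier spots, the slide row or title-number set as a block, the variance model, the arrays fitted and each array left out.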

Additional observations from a re-analysis of the deposited data

Results flagged for a closer look

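The Kcne3 maturation effects ran in opposite directions in the 2 subsets, and the Kcne3 levels of mature and immature arrays did not overlap in either. The effect in Sirpa-positive minus that in Sirpa-negative cells was -4.29 on the log2 scale (SE 0.381, unadjusted p = 7.48e-06), and limma's adjusted p was 0.0689, so the difference itself did not pass over all genes. The Kcnk2 levels of mature arrays lay below those of immature ones in Sirpa-positive cells (log2 difference -0.96, adjusted p = 0.163) and above them in Sirpa-negative cells (1.20, adjusted p = 0.0525), where no immature array was above background, and neither passed. The difference of its effects was -2.16 (SE 0.479, adjusted p = 0.184), and it did not pass.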

How the results depend on the processing

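Of 550 alternative values of the 27 called gene results, 426 stayed past the threshold, 124 did not and 0 changed sign. Under all alternatives that kept the gene, 8 results passed. Among them were Kcnk6 in Sirpa-negative maturation and Kcnc1 and Kcne3 in Sirpa-positive maturation. Between the subsets they included Kcne3, Kcnj10 and Kcnk2 in immature cells and Kcnj10 in mature cells. The count of Kcn genes in Sirpa-positive maturation, 5, became 3 on the authors' values, 2 with no filter on dim probes, 1 among the 27 genes well above background on all 8 arrays, and 2 to 5 with 1 array left out (2 without replicate 6, 3 without 3 or 5). In Sirpa-negative maturation the 14 became 9 with normexp and quantile normalization and on the authors' values, 5 with no filter, 7 with detection on all arrays, 6 from the 4 arrays compared alone, and 5 to 14 with 1 array left out (5 without replicate 2, 6 without 4, 7 without 7 or 8). Between the subsets of immature cells the 5 became 2 with detection on all arrays, where fewer genes are tested, and 3 to 6 with 1 array left out (3 without replicate 3 or 7). Between those of mature cells the 3 became 1 with no filter or with trended and robust variances, 0 with detection on all arrays and 1 to 4 with 1 array left out (1 without replicate 1, 2, 3, 5 or 8). For the difference between the maturation effects, 1 gene, Kcne3, passed in place of 0 with normexp and quantile normalization, on the authors' values, on the mean of a gene's probes and with trended and robust variances, when 171, 144, 4 and 186 of all genes passed; with 1 array left out it was 0. Apart from the smaller number of arrays or genes named, the cause was not tested. Median scaling moved the median of all genes in Sirpa-negative maturation from -0.01 to -0.13.

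Signs changed for differences that had not passed (ranges are those with 1 array left out). In Sirpa-positive maturation Kcnj2 spanned -0.79 (without replicate 5) to 0.11 (without 3), Kcnma1 -0.37 (5) to 0.93 (3), with -0.22 without 1, and Kcnq1ot1 -0.33 (3) to 0.15 (5), with 0.05 without 1. In Sirpa-negative maturation Kcnj2 spanned -0.84 (7) to 0.82 (4), with 0.08 without 2. Between immature subsets Kcnma1 spanned -0.25 (4) to 1.56 (7), and Kcnip3 was 0.11 on the mean of its probes. Between mature subsets Kcna3 spanned -0.31 (2) to 0.53 (8), Kcnip3 -0.089 (6) to 0.18 (1), with -0.0089 without 2, Kcnma1 -0.67 (8) to 0.52 (2), with 0.43 without 6 and 0.012 with median scaling, and Kcnq1ot1 -0.61 (2) to 0.31 (8). For the difference between the maturation effects Kcnj2 spanned -1.16 (4) to 0.50 (7), with 0.12 without 3, 0.067 with normexp and quantile normalization and 0.17 on the authors' values, Kcnma1 spanned -1.64 (7) to 0.17 (4), and Kcnip3 was -0.042 on the mean of its probes. No paired analysis was possible because no replicate number is shared between groups; instead slide row and title-number set, each with 1 array of every group, served as blocks. With the set of title numbers (1 to 4 and 5 to 8) as a block, the counts were 6, 15, 5, 3 and 0. Probes near background limit Kcng3, Kcnk13, Kcnn3, Kcnc1, Kcnk2 and Kcnj2, among others. Kcnj10 too was not above background on any Sirpa-negative array.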

Other observations

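Several Kcn genes that were not kept had a bright signal on a single array. A probe of Kcnip1, a calcium-binding partner of Kcnd-type pores, read -0.78 on Sirpa-negative immature replicate 4 and between -6.61 and -5.24 on the other arrays. The non-coding Kcnmb4os1 read -1.16 on the same array, with -6.68 to -5.42 elsewhere. A probe of the sodium-activated channel gene Kcnt2 read -1.15 on Sirpa-positive mature replicate 6, and Kcnj8 -2.89 on Sirpa-positive mature replicate 1. None of these signals was above background on the other array of its group.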
